A study of Mus musculus with 4 samples.

Results

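Nuclear receptors are transcription factors that bind DNA as monomers, homodimers or heterodimers, and many switch from recruiting corepressors to recruiting coactivators when a small lipophilic ligand binds. The retinoid X receptors (RXRs) are the shared partner of the thyroid, retinoic acid, vitamin D and lipid-sensing receptors, while the steroid receptors pair with themselves. In the hippocampus the glucocorticoid and mineralocorticoid receptors are known for sensing stress hormones, and the thyroid and retinoic acid receptors for roles in neuronal maturation and plasticity. Histone H3 acetylated at lysine 27 (H3K27ac) marks active promoters and enhancers.

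The genes described here are 41 named nuclear receptor genes, out of 21853 protein-coding genes of the GENCODE M21 annotation on mouse build mm10. They were chosen by name and not by a cut on their values, though with earlier results of these data known. They were put into 7 classes by ligand or tissue: 2 corticosteroid, 3 sex steroid, 2 thyroid hormone, 6 retinoid, 6 lipid sensor or vitamin D, 6 liver and 16 orphan receptors. The H3K27ac ChIP-seq samples were made from hippocampal layer tissue of male B6CASTF1/J mice, a cross of C57BL/6J and CAST/EiJ parents, aged 2 months. All 4 samples formed 1 group: pool C (biological replicate 1) and pool D (biological replicate 2), each of 7 biosamples sequenced as 2 technical replicates. There was no treated, mutant or control arm, so the values below describe 1 condition in 2 pools and no test between conditions was possible. The tissue was pooled and of mixed cell types, and animals cannot be told apart within a pool.

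Each gene was scored on 4 peak lists that the authors deposited: peaks replicated between the pools, peaks called on the pools together, and peaks of each pool by itself. A gene was called marked when a peak of the replicated list lay within 1 kb of a transcription start site (TSS) of any of its coding transcripts. Its signal was the highest deposited signal among those peaks, a value without a stated unit that was used only to rank genes within a list. Covered length was the number of bp lying in peaks within 10 kb on each side of the main TSS, out of 20 kb. The pool D list held 63623 peaks and the pool C list 94836, and since no read totals were at hand, sequencing depth is unknown. A gene lacking a peak was therefore below detection here, which does not show that the mark was absent. The tissue label was checked on marker genes: all 5 excitatory neuron, 4 astrocyte, 3 oligodendrocyte, 3 microglia and 3 endothelial markers were marked, as were 2 of 3 inhibitory neuron and 2 of 3 choroid plexus markers. Of the markers of other organs, 1 of 4 hepatocyte genes (Apoa1), 1 of 3 adrenal and gonad genes (Star) and 0 of 3 pituitary genes were marked, and Alb and Prl were among those without a promoter peak. Since 60.8% of all protein-coding genes were marked, counts from lists this short say little. By replicated signal, some markers of brain and vessel cells, such as Gad2 (1.10 percentile of marked genes) and Pecam1 (2.77), ranked below Apoa1 (10.5). Others, such as Slc1a2 (91.3) and Camk2a (84.6), ranked far above Apoa1.

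Of the 41 receptor genes, 27 were marked (65.9%, 95% Wilson interval 50.5 to 78.4%), beside 60.8% of all protein-coding genes, so the share was close to the background. The list called on both pools together also marked 27 (61.7% of all genes), the pool C list 26 (61.4%) and the pool D list 24 (57.1%). A replicated promoter peak with at least 50% of its length inside peaks of each pool was found for 23 members, beside 54.2% of all genes. For 12 members the signal was above the median of marked genes, beside 30.3% of all genes. The median signal of the marked members was 12.8, beside 13.8 over all marked genes, and the median covered length was 1460 bp, beside 1490 bp. As a family, then, the receptors sat near the middle of all genes, and the spread was between classes and between members. Where a peak of this mixed tissue was weak or absent, the mark in few cells and a low level in many cells cannot be told apart.

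The classes ordered as follows. Both corticosteroid receptors, both thyroid hormone receptors and all 6 retinoid receptors were marked. Marked genes numbered 5 of 6 among the lipid sensors and vitamin D receptor, 11 of 16 among the orphan receptors and 1 of 3 among the sex steroid receptors. None of the 6 liver receptors was marked in any of the 4 lists, and with 6 genes the upper Wilson bound of that share was 39.0%. The share of all protein-coding genes, 60.8%, was above that bound. It lay inside the Wilson intervals of the corticosteroid and thyroid classes (34.2 to 100% each) and the sex steroid class (6.15 to 79.2%). The intervals of the lipid sensor class (43.6 to 97.0%) and the orphan class (44.4 to 85.8%) held it too. The retinoid interval, 61.0 to 100%, began just above it. Most class shares therefore cannot be told apart from the background. The median covered length was 8360.5 bp for the corticosteroid, 9482 bp for the thyroid, 3856.5 bp for the retinoid, 2740 bp for the orphan and 2075 bp for the lipid sensor class, and 0 bp for the sex steroid and liver classes. The thyroid value is the midpoint of a very high and an empty gene, as described below.

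**Figure D1:**
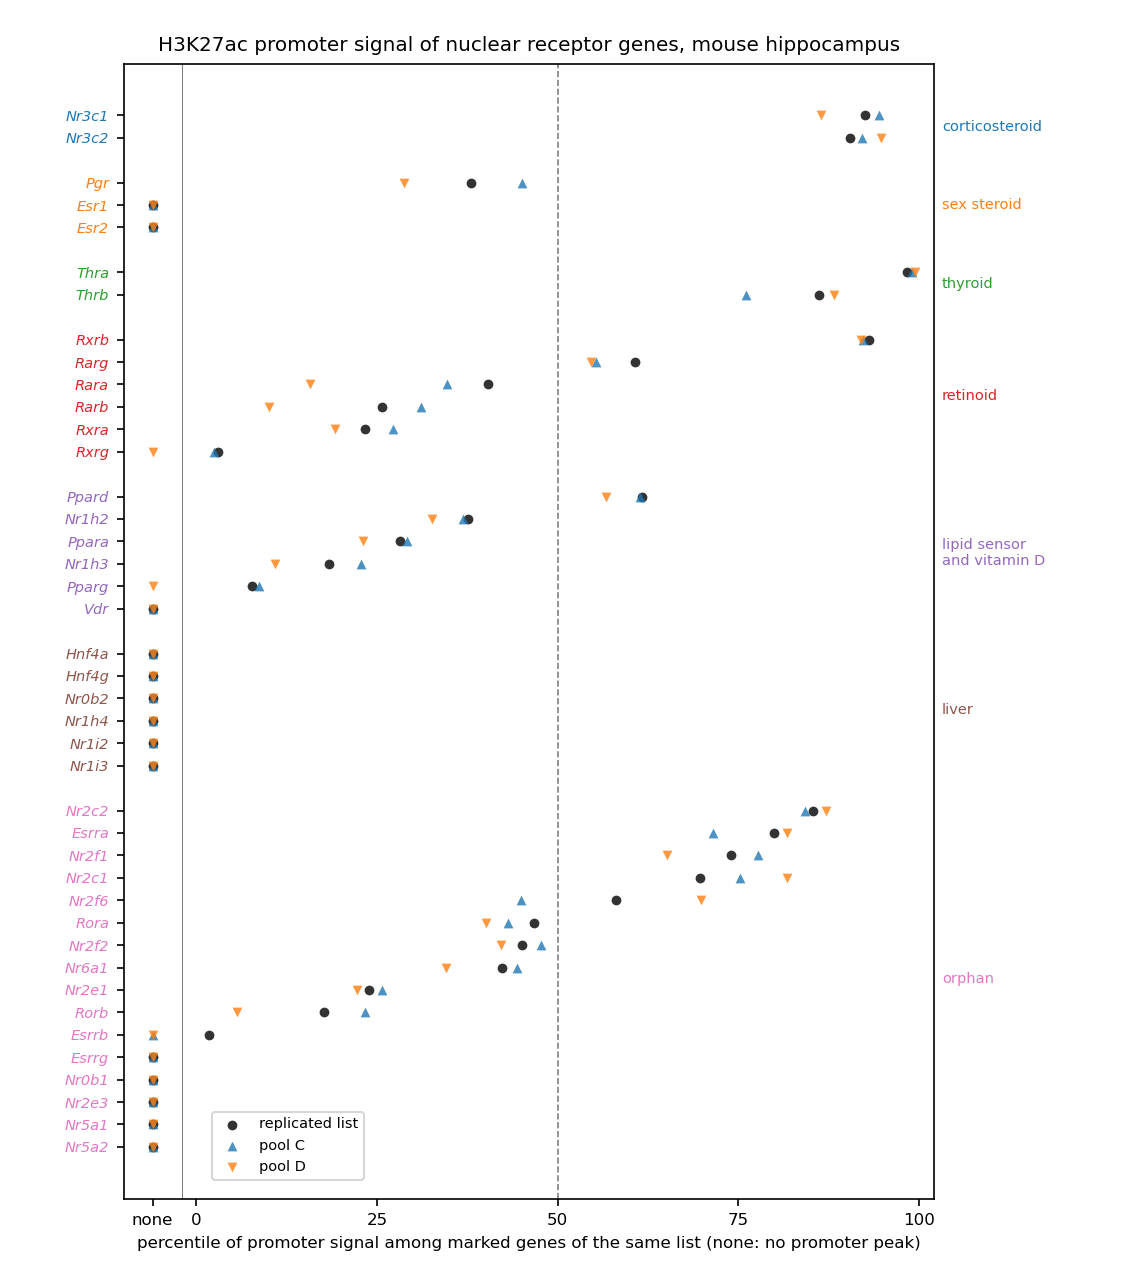
Percentile of each receptor gene's promoter signal among the marked genes of the same list (x axis), for the replicated list (circles), pool C (upward triangles) and pool D (downward triangles), with genes grouped by class and the dashed line at the median. Thra, Rxrb, Nr3c1 and Nr3c2 sit far to the right in all 3 lists, and the 6 liver receptors have no promoter peak in any.

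The corticosteroid receptors carried some of the strongest promoter peaks of the family. Nr3c1, the glucocorticoid receptor, lies on the minus strand of chr18 with its main TSS at 39490674, and its promoter peak spanned 39484076 to 39492237, a width of 8162 bp. Its signal was 26.0 in the replicated list, 31.0 in pool C and 16.6 in pool D, which ranked it at the 92.5, 94.4 and 86.4 percentile of marked genes in those lists. Its covered length was 9285 bp in the replicated list, 8839 bp in pool C and 5408 bp in pool D. The 8162 bp peak held 5 of its 6 groups of coding start sites (starts within 500 bp joined), and the sixth, 28747 bp upstream of the main TSS, had no replicated peak, although the pool C list and the list of both pools together held weak peaks of signal 3.69 and 2.78 there. Nr3c2, the mineralocorticoid receptor, which binds the same hormones with higher affinity, had a peak of 6724 bp at chr8:76896769-76903492, most of it upstream of the main TSS. A start of the transcript Gm10649 also lay within 1 kb of this peak, so the mark there cannot be given to Nr3c2 alone. The signal of Nr3c2 was 24.6 in the replicated list, 29.1 in pool C and 20.6 in pool D, at the 90.4, 92.1 and 94.7 percentile. The 2 genes thus lay close together in every list: Nr3c1 ranked above Nr3c2 in the replicated list and pool C, and below it in pool D.

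The number of peaks outside the promoter differed between these genes. Nr3c2 spans 345.6 kb and held 24 further peaks within its gene body in the replicated list, the highest number among the 41 genes in that list, with a median signal of 3.47 and a maximum of 10.1 in an intron 219068 bp from the main TSS. Nr3c1 spans 108.9 kb and held 5, none above a signal of 3.77. With the promoter peak included, peaks covered 8.25% of the Nr3c2 gene body and 10.7% of the shorter Nr3c1. Among the 212 protein-coding genes of 300 to 400 kb the median was 4.12% and the upper quartile 9.95%, and the other 3 receptor genes of that length lay well below Nr3c2: Thrb at 2.15%, Rarb at 1.52% and Esr1 at 0.555%.

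Of the sex steroid receptors, Pgr, the progesterone receptor, was marked and both estrogen receptor genes were not. Pgr had a peak of 1375 bp starting within the gene, with a signal of 11.5 in the replicated list, 14.8 in pool C and 7.55 in pool D. That placed it at the 38.0, 45.1 and 28.8 percentile, below the median of marked genes in all 3 lists. The peak began past the start site used as main and within 1 kb of a start 635 bp further downstream, so Pgr counts as marked only through that other start. Esr1 (estrogen receptor alpha) had no peak within 178415 bp of its main TSS, but held 3 intronic peaks more than 300 kb into the gene, the strongest with a signal of 7.87. Esr2 (estrogen receptor beta) had none in its body, and the nearest peak lay 18821 bp upstream with a signal of 4.26.

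Among the thyroid hormone receptors, Thra (receptor alpha) had the strongest promoter signal of all 41 genes. The value was 33.5 in the replicated list, 38.9 in pool C and 28.3 in pool D, at the 98.3, 98.9 and 99.4 percentile. Its promoter peak ran for 13720 bp at chr11:98733928-98747647, and a neighbouring peak of signal 20.1 held another coding start 11713 bp downstream. Peaks covered 18964 bp of the 20 kb around the main TSS (pool C 19511 bp, pool D 16643 bp), and 82.0% of the gene body lay in peaks. The strongest other peak that overlaps the gene, with a signal of 26.8 and a width of 10583 bp, was at the start of Nr1d1, the circadian repressor gene whose transcript overlaps the end of Thra on the other strand, and peaks there cannot be assigned to either gene.

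Thrb (receptor beta) was marked at a different place from the start that the annotation ranks first. A group of starts reaching 321268 bp upstream of the main TSS lay in a peak at chr14:17659238-17662160, with a signal of 22.6 in the replicated list, 22.1 in pool C and 17.2 in pool D. The other start groups, at the main TSS and 18708 bp upstream of it, had no peak in any list. Covered length was accordingly 0 bp around the main TSS and 3307 bp (pool C 3321 bp, pool D 2597 bp) around the marked start. The gene is known to make its receptor isoforms from separate promoters. The 150 bases upstream of the RefSeq starts on GRCm38.p6 are shown to compare the promoter with the mark (chr14:17660810-17660959) and the one without (chr14:17981494-17981643), both on the plus strand, with every CG dinucleotide in capitals. The marked sequence holds 18 CG and the unmarked 1.
Thrb marked: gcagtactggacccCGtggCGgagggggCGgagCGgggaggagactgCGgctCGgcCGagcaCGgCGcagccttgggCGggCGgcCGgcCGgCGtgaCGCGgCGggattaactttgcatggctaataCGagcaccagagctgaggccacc
Thrb unmarked: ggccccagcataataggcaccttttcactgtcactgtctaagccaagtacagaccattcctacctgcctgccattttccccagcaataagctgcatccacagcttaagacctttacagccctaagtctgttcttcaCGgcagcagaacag

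All 6 retinoid receptors were marked, over a wide range of signal. Rxrb was the strongest, with 26.4 in the replicated list, 29.1 in pool C and 18.7 in pool D, at the 93.0, 92.2 and 91.9 percentile. Its peak, chr17:34030358-34033606, also reaches the start of Slc39a7, a zinc transporter gene, so the mark there cannot be given to Rxrb alone. Rarg came next among the retinoid receptors, with a signal of 15.8 (pool C 17.0, pool D 10.8), taken from a peak of 5685 bp at start sites 11017 and 13928 bp downstream of the main TSS. At its main TSS the signal was 11.6. Rara, the receptor alpha gene, had a signal of 11.9 in the replicated list, 12.5 in pool C and 5.87 in pool D, and all 4 of its start groups were marked. The pool D value is from the peak at the main TSS, since the counterpart of the stronger peak, with 8.81 in pool D, lay just beyond 1 kb of a coding start. Peaks covered 8735 bp around the main TSS of Rara and 42.0% of its gene body. Rxrb had the most covered length of the class, 10203 bp (pool C 10666 bp, pool D 8050 bp), and 45.5% of its gene body.

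The remaining retinoid receptors ranked low. Rarb, a gene that retinoic acid itself induces, had a signal of 9.02 (pool C 11.7, pool D 5.03) at its main TSS and no peak at the start group 243462 bp upstream. A start of the transcript Gm48162 also lay within 1 kb of the Rarb promoter peak. Rxra had 8.56 (pool C 10.8, pool D 6.30) at its promoter, but stronger peaks lay in its introns, with signals of 13.5 and 11.5 at 81596 and 63419 bp from the main TSS. Rxrg had a narrow peak of 387 bp with a signal of 3.59 in the replicated list and 3.90 in pool C and no promoter peak in pool D, which put it at the 2.96 percentile of marked genes. Thus 1 retinoid receptor rested on pool C alone. Over all genes, 964 had a promoter peak in pool C only and 26 in pool D only, so loss in pool D was the usual direction.

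The 150 bases upstream of a RefSeq start are shown for Rxrb, the highest ranked of the class (chr17:34031662-34031811, plus strand, 21 CG), and for Nr2f1, the orphan receptor gene with the most covered length (chr13:78198874-78199023, minus strand, 7 CG). Beside them stand 2 liver receptors without the mark, Hnf4a (chr2:163547005-163547154, plus strand, 3 CG) and Nr1i2 (chr16:38294825-38294974, minus strand, 2 CG). Each reads 5′ to 3′ along the gene with CG in capitals. Marked promoters were not all rich in CG. A second Nr2f1 promoter in the same peak (chr13:78196450-78196599, not shown) holds 1 CG, fewer than either liver receptor sequence.
Rxrb marked: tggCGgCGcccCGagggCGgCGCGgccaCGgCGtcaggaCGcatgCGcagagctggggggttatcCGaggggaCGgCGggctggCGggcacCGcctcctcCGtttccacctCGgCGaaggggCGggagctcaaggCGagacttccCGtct
Nr2f1 marked: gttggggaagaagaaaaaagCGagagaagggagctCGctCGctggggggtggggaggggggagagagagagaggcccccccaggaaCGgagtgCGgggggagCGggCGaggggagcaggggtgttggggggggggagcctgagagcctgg
Hnf4a unmarked: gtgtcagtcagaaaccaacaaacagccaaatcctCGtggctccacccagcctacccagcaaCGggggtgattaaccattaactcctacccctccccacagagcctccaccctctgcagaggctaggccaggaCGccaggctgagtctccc
Nr1i2 unmarked: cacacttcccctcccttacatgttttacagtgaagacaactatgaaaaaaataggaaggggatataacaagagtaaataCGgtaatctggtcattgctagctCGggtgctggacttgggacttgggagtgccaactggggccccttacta

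Of the lipid sensors and the vitamin D receptor, only Ppard exceeded the median signal of marked genes in the replicated list. Ppard, the fatty acid sensor delta of the peroxisome proliferator-activated receptors, had 16.0 in the replicated list, 18.3 in pool C and 11.1 in pool D, and 6142 bp covered. Nr1h2, the oxysterol receptor LXR beta, had 11.4 (pool C 13.1, pool D 8.02) from a peak of 383 bp. Ppara, the alpha member, had 9.49 (pool C 11.2, pool D 6.84). Nr1h3, LXR alpha, ranked lower by signal with 7.46 (pool C 9.73, pool D 5.15) and yet had the most covered length of the class, 6827 bp. Part of that length belongs to a peak of signal 15.6 at the start of Acp2, a neighbouring lysosomal phosphatase gene. Signal and covered length therefore ordered these genes differently.

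Pparg and Vdr stood at the low end. Pparg, the adipocyte regulator, had no peak at its main TSS, and a peak of signal 4.86 lay at chr6:115361027-115362269, near a start 59774 bp upstream. Pool C listed it with 5.74 and pool D did not list it. Sequences upstream of its RefSeq starts are shown as a further gene with marked and unmarked starts, all on the plus strand. The first belongs to a start in the peak (chr6:115360994-115361143). The next belongs to a start just past the end of the peak (chr6:115362199-115362348), and the last to the main start without the mark (chr6:115421916-115422065). These sequences hold 23, 5 and 1 CG in 150 bases. Vdr, the vitamin D receptor, had no promoter peak at any of its 4 start groups in any list, and 1 intronic peak of signal 7.10 lay 44981 bp from its main TSS.
Pparg marked, first start: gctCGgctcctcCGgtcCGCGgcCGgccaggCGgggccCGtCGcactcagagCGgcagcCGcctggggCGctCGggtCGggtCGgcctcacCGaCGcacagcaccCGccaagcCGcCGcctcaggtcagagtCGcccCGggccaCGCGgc
Pparg marked, next start: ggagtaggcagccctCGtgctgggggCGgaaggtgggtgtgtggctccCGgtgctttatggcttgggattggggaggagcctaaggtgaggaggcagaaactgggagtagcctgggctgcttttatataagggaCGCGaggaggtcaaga
Pparg unmarked: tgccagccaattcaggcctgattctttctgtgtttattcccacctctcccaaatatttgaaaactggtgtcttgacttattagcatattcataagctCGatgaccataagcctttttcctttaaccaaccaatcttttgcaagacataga

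The liver receptors were the class without the mark. They are the bile acid receptor Nr1h4 (FXR), the xenobiotic sensors Nr1i2 (PXR) and Nr1i3 (CAR), the corepressor-like Nr0b2 (SHP), and the hepatocyte nuclear factors Hnf4a and Hnf4g. None had a peak within its gene body in the replicated list. Around 4 of the 6 the covered length was 0 bp. Nr1i3 had 2238 bp (pool C 2313 bp, pool D 1809 bp) and Nr0b2 had 736 bp (pool C 642 bp, pool D 731 bp), and in both cases the nearest peak stood at another gene. It was 7102 bp from Nr1i3 at Tomm40l, a mitochondrial import gene, with a signal of 9.80, and 7354 bp from Nr0b2 at Nudc, a nuclear migration gene, with a signal of 13.1. For the other 4 genes the nearest peak lay 47110 bp (Nr1i2), 47766 bp (Hnf4a), 62265 bp (Nr1h4) and 1583933 bp (Hnf4g) away.

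**Figure D2:**
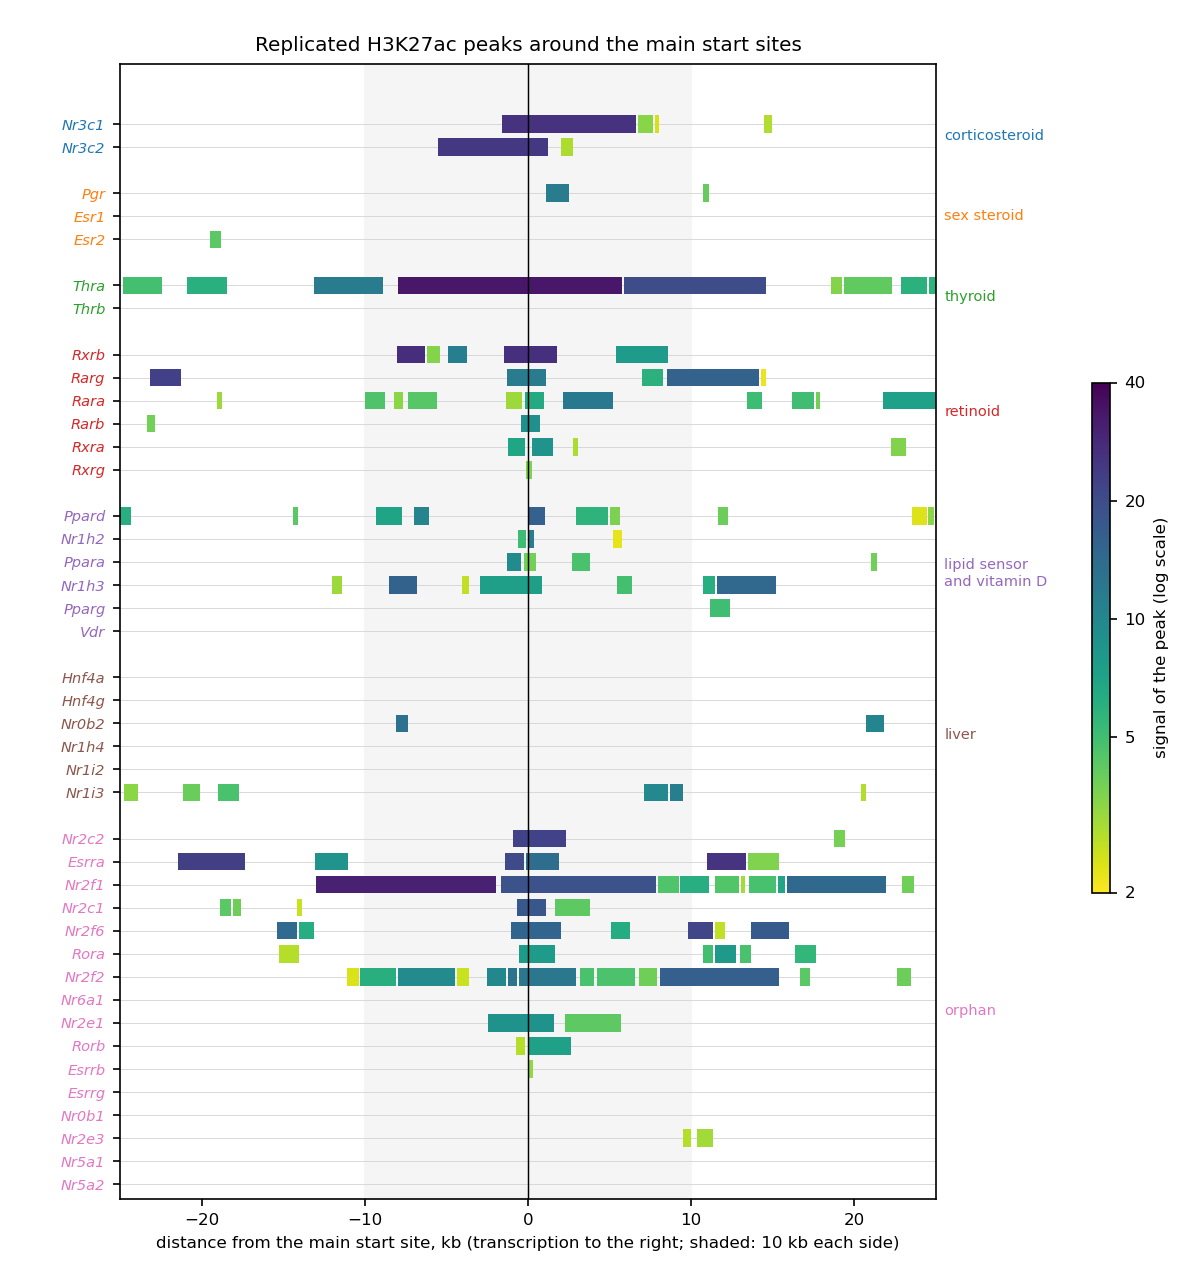
Peaks of the replicated list within 25 kb of each main TSS (x axis, kb, transcription to the right), drawn to scale and coloured by signal, with 10 kb on each side shaded. Within the shaded window Thra, Nr2f1 and Nr2f2 are mostly filled with peaks, and 4 of the 6 liver receptors have none.

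Of the 16 orphan receptors, whose natural ligands are unknown, disputed or absent, 11 were marked. By signal the first was Nr2c2 (testicular receptor 4), with 22.2 in the replicated list, 24.8 in pool C and 16.8 in pool D. Esrra, the estrogen-related receptor alpha that drives mitochondrial genes, had 20.4, 20.9 and 15.4. Nr2f1 (COUP-TF1), a regulator of cortical and hippocampal patterning, had 18.8, 22.6 and 12.3. These genes lay between the 65.1 and 87.1 percentile of their lists. Nr2c1 (testicular receptor 2) followed with 17.8 in the replicated list and Nr2f6 (EAR2) with 15.3.

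By covered length the order was different, and the COUP-TF genes led. Nr2f1 had 19511 bp covered in the replicated list, 19375 bp in pool C and 18461 bp in pool D. That was the highest of the 41 genes in the replicated list and pool D, while in pool C Thra had more, 19511 bp. Peaks filled 98.2% of its gene body, and the strongest peak nearby was not at the promoter: a peak of signal 30.4 spanned from 12982 to 1964 bp upstream of the main TSS. A start of the transcript A830082K12Rik lay within 1 kb of the promoter peak, so that peak cannot be given to Nr2f1 alone. Nr2f2 (COUP-TF2), known for roles in interneurons and vessels, had 17586 bp in the replicated list, 16753 bp in pool C and 11404 bp in pool D. Its promoter signal of 12.8 was near the middle of marked genes (45.1 percentile), while a peak of 7277 bp that overlaps the 3′ end of the gene, at the starts of Gm44946 and Gm44948, had 16.3, and it cannot be assigned to Nr2f2. A start of the transcript B130024G19Rik also lay within 1 kb of a promoter peak of Nr2f2. Over the 27 marked members, Spearman's rho between signal and covered length was 0.52, and over all 13290 marked genes 0.39, a description across genes that share libraries.

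The remaining marked orphan receptors were weaker or rested on other starts. Rora, a regulator of cerebellar and circadian genes, had 13.1 (pool C 14.4, pool D 9.0) at a start 635896 bp upstream of the main TSS and 7.75 at the main TSS, so both of its promoters carried the mark. It held 22 further peaks over its 734.5 kb body. Nr6a1 (germ cell nuclear factor) had 12.3 at a start 141702 bp upstream of the main TSS and none at the main TSS. Only 48.2% of that peak lay in pool D peaks, so it missed the 50% needed for support by both pools. Nr2e1 (TLX), the neural stem cell receptor, had 8.68 (pool C 10.5, pool D 6.71), 7474 bp covered, and a peak shared with the start of Ostm1. Rorb had 7.29 (pool C 9.85, pool D 4.23). Esrrb had a peak of 311 bp with a signal of 3.24 that was in neither pool list.

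Orphan receptors without a promoter peak were Nr5a1 (SF-1) and Nr0b1 (DAX1), the regulators of adrenal and gonadal steroid synthesis, Nr5a2 (LRH-1), the photoreceptor factor Nr2e3, and Esrrg. The nearest peaks lay 55378 bp from Nr5a1, 362083 bp from Nr0b1 on the X chromosome, 113399 bp from Nr5a2 and 9489 bp from Nr2e3, the last a weak peak of signal 2.78. Of the 3 steroid synthesis genes among the markers, Cyp11a1 and Cyp17a1 had no promoter peak either and Star had a weak one of signal 3.24.

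Esrrg, the estrogen-related receptor gamma, depended on the annotation. None of its GENCODE coding starts had a peak, and it was counted as unmarked. Inside the gene, however, a peak of 1536 bp at chr1:187651031-187652566 had a signal of 11.3 in the replicated list, 14.8 in pool C and 5.94 in pool D, with 98.6% of its length in pool C peaks and 86.6% in pool D peaks. RefSeq places 2 further starts of Esrrg in that peak, at 187651758 and 187652241, and GENCODE places the start of the antisense transcript Gm36388 there. With the RefSeq starts added, Esrrg was the sole gain and 28 of the 41 genes were marked. The peak cannot be assigned to Esrrg or Gm36388 from these data. CG content did not separate its marked and unmarked starts: the 2 RefSeq promoters in the peak hold 7 and 6 CG in the 150 bases upstream, and the 2 outside it 5 and 12. In the 300 bp windows the counts were 16 and 22 in the peak, and 15 and 19 outside it. Shown are the first marked promoter (chr1:187651608-187651757, plus strand, 7 CG) and the unmarked one at the main TSS (chr1:187997677-187997826, plus strand, 12 CG).
Esrrg marked: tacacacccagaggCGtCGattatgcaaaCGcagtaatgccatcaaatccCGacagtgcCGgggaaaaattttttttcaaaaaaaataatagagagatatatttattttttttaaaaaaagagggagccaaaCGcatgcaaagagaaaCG
Esrrg unmarked: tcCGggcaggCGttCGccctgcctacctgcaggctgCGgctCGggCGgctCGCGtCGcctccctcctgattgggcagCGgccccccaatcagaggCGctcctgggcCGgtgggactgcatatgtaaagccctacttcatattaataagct

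**Figure D3:**
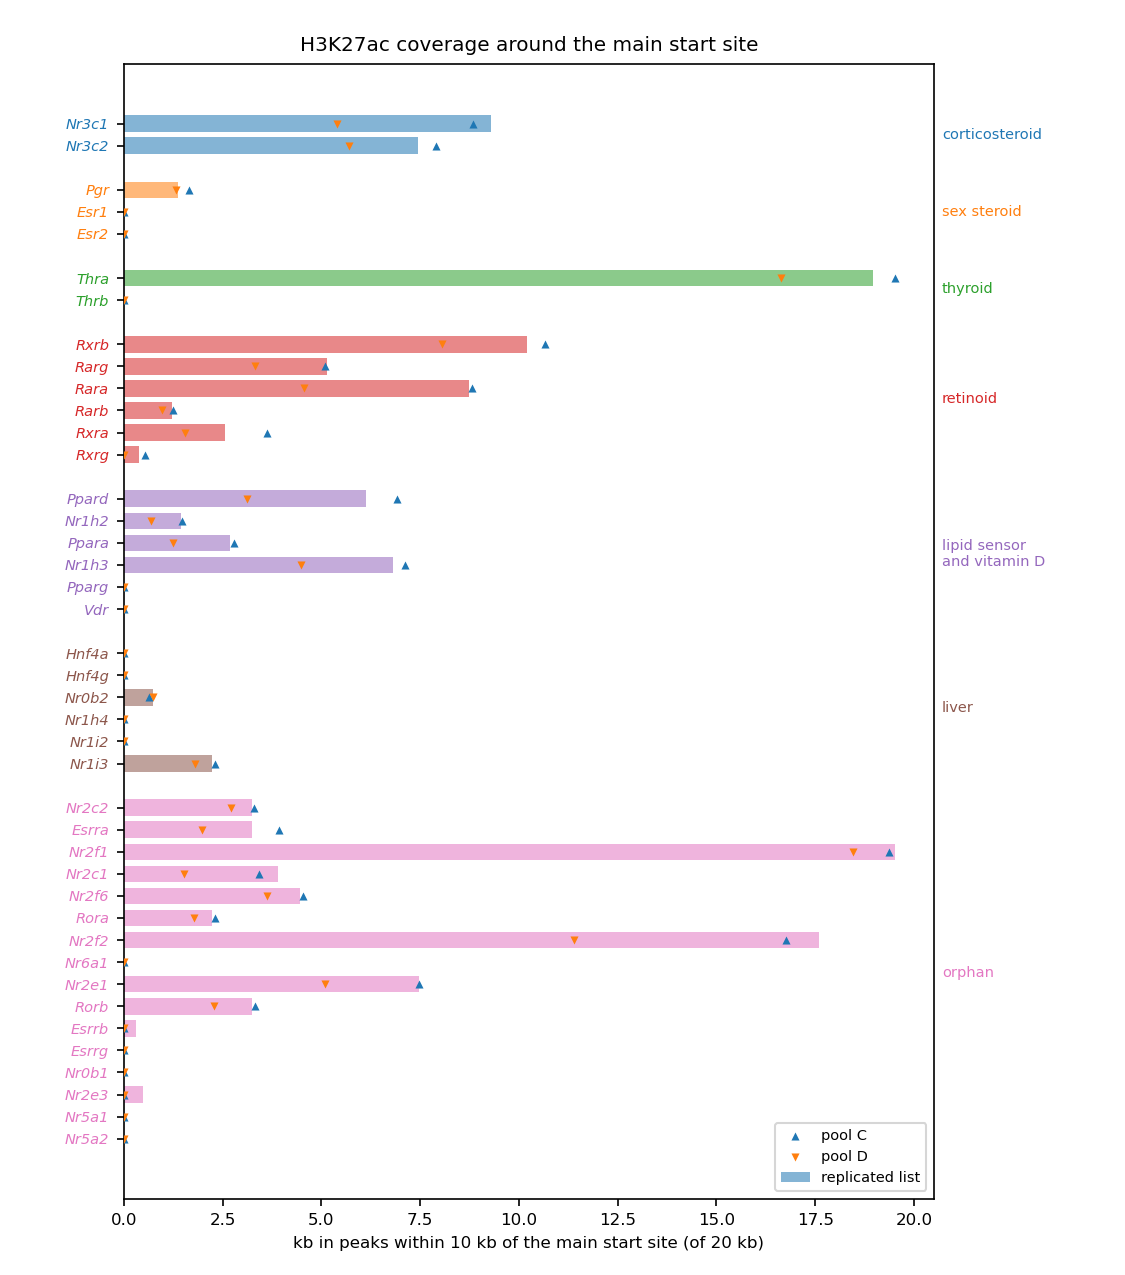
Length in peaks within 10 kb of each main TSS (x axis, kb of 20 kb), as bars for the replicated list and triangles for pool C (upward) and pool D (downward). Nr2f1, Thra and Nr2f2 exceed 17 kb in the replicated list, and genes such as Thrb and Pparg are at 0 because their mark lay at another start.

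Which start carried the mark varied within genes. After starts within 500 bp were joined, 33 of the 41 genes had more than 1 group of coding starts. In 8 of these every group was marked (Thra, Rara, Rarg, Nr2f1, Nr2f2, Nr2f6, Rora and Esrra), in 16 some were, and in 9 none was. The same counts were not made over all genes, so they cannot be read as particular to the receptors. Start groups are also not separate calls: a single peak marked all 4 groups of Nr2f1. At Pgr, Thrb, Pparg and Nr6a1 the main TSS itself had no peak within 1 kb. Measured around the start with the strongest promoter peak in place of the main TSS, the median covered length of the 41 genes was 2238 bp. That start was picked from the same peaks that were then measured. The measure was not made over all genes, so it cannot be set against their 1490 bp at main TSSs.

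**Figure D4:**
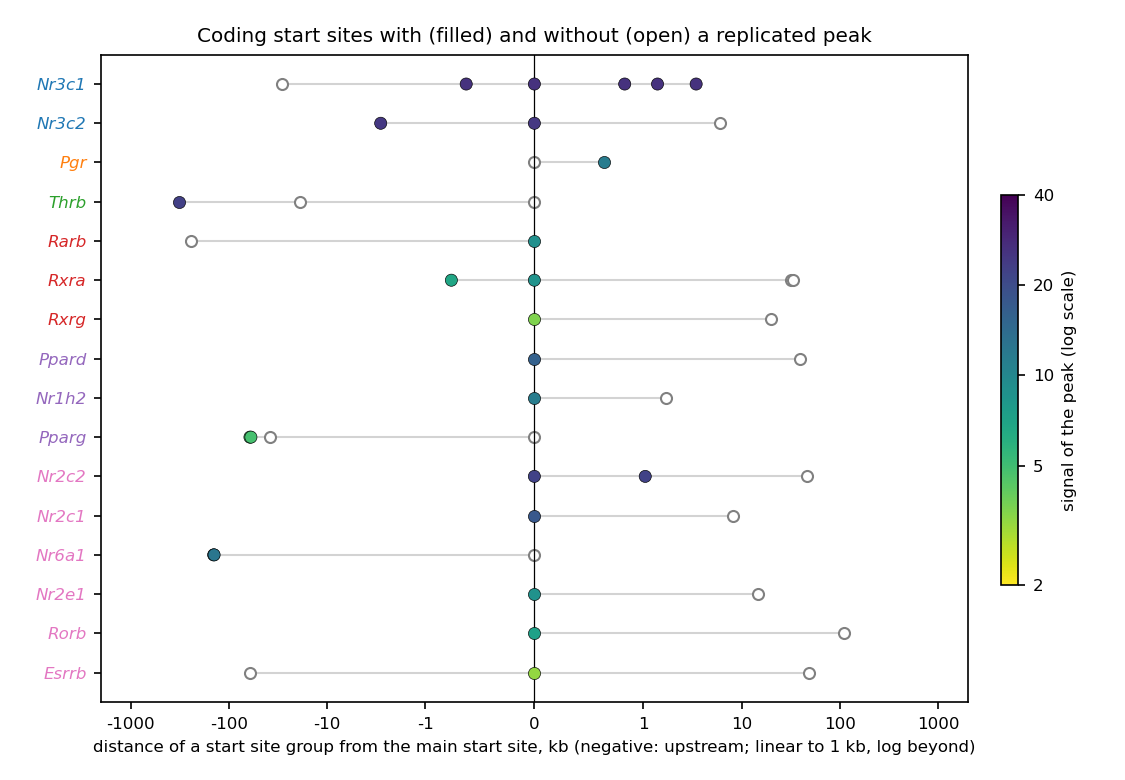
Coding start groups of the 16 genes with some starts marked, by distance from the main TSS (x axis, kb, upstream negative, linear to 1 kb and logarithmic beyond), filled by signal where a replicated peak lay within 1 kb and open where none did. At Thrb, Pparg and Nr6a1 the marked starts lie far upstream of an unmarked main TSS, and at Rarb and Esrrb the far upstream start is unmarked.

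Promoter base composition, which the choice of genes did not use, went with the mark about as it did genome-wide. With a CpG observed over expected ratio of at least 0.6 within 500 bp of the main TSS taken as CpG-rich, 21 members were rich and 19 of these were marked (90.5%, beside 91.6% of all CpG-rich genes). Of the 20 CpG-poor members 8 were marked (40%, beside 33.0% of all CpG-poor genes). The ratio was taken at the main TSS, while a peak at any coding start counted as the mark, for members and all genes alike. Of these 8 members, Pgr, Thrb, Pparg and Nr6a1 were marked only at another start. All 6 liver receptors were CpG-poor. The CpG-rich members without the mark were Vdr and Esrrg. Among the CpG-poor members with a strong mark was Nr3c2, with a ratio of 0.495, and Thrb, whose ratio of 0.286 was taken at its unmarked main TSS. Spearman's rho between the ratio and covered length was 0.63 over the 41 genes, given as a description.

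**Figure D5:**
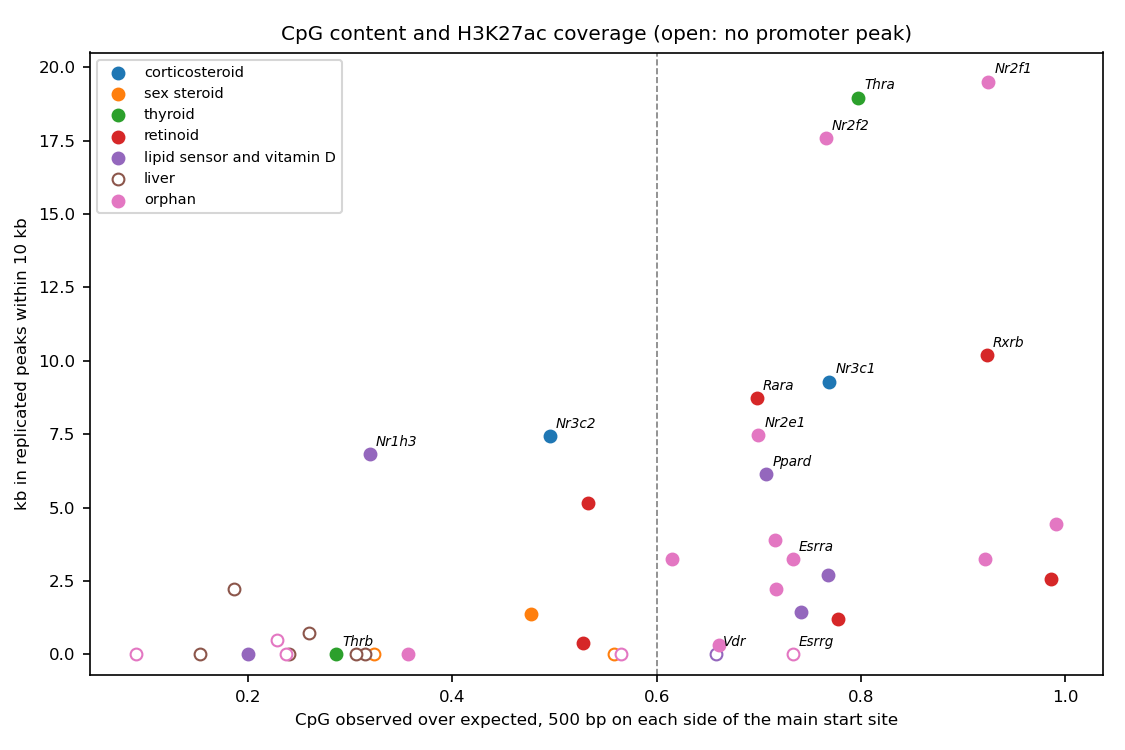
CpG observed over expected within 500 bp of the main TSS (x axis) against length in replicated peaks within 10 kb (y axis, kb) for the 41 genes, coloured by class, with open points for genes without a promoter peak and a dashed line at 0.6. Vdr and Esrrg are the open points to the right of the line, and Nr1h3 and Nr3c2 are the highest points to its left.

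The RefSeq promoter table, 250 bases before to 50 after each start on GRCm38.p6, held 58 promoters of 37 members. Thra, Nr5a1, Nr3c1 and Hnf4g were not matched. Of the 58 promoters 33 overlapped a replicated peak, by any length, and were counted as in a peak (56.9%, beside 46.3% of 32851 promoters). Their median was 20 CG in 300 bp against 6 in the others (20 and 3 over all promoters). The GC box GGGCGG was in 24 of 58 (41.4%, beside 35.7% of all), of which 19 were among the 33 in peaks, beside 60.4% of all promoters in peaks. The hexamer AGGTCA, which most non-steroid receptors recognise, was in 11 of 58 (19.0%, beside 16.3%). Of these, 5 were among the 33 in peaks and 6 among the 25 not in peaks. The hexamer AGAACA of the glucocorticoid response element was in 5 (8.62%, beside 19.0%), 1 of them in a peak and 4 not. Over all promoters in peaks, 11.4% held AGGTCA and 12.5% held AGAACA, below the shares over all promoters. All motifs were searched on both strands.

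No member promoter held direct repeats of AGGTCA with a gap of 1 to 5 bases, the textbook elements of RXR heterodimers, which contain the AGGTCA hexamer and which 13, 3, 2, 5 and 3 of the 32851 promoters held. An inverted repeat of AGAACA with a gap of 3 was likewise in 0 of 58 and in 3 of 32851. The absence means only that these exact letters were not in the windows. The AGGTCA matches of member promoters counted as in peaks are shown in 30 base windows with the hexamer, or its complement TGACCT, in capitals. Matches in member promoters not in peaks are not shown. They lie at Pparg (chr6:115361104-115361133 and chr6:115362328-115362357), Thrb (chr14:17660764-17660793), Rara (chr11:98964892-98964921) and Rarg (chr15:102257730-102257759). The second Pparg window and the Rara window lie past the end of the peak scored for their promoter.
Pparg first start: agccgccgcctcAGGTCAgagtcgccccgg
Pparg next start: agggacgcgaggAGGTCAagaaggggcctg
Thrb: aggagagttgacAGGTCAagggaatagggc
Rara: agcagattgcagcAGGTCAgtcctttggac
Rarg: agcccaggacacTGACCTctgccagctctg

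Among the partners of the receptors, all 15 coactivators and corepressors were marked in every list, beside 60.8% of all genes in the replicated list, led by the acetyltransferase gene Ep300 with a signal of 39.0, Tbl1xr1 with 29.0, Ncoa1 with 25.2 and Gps2 with 24.3. All 8 chaperone genes of the steroid receptor complex were marked too, led by Hspa8 with 41.7, Hsp90aa1 with 26.7, Hsp90ab1 with 25.4 and Stip1 with 23.6. Their median covered lengths were 4111 and 2525.5 bp, beside 1490 bp over all genes. These lists were chosen with earlier results of these data known, and many of the genes are active in most tissues.

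Genes that make, carry or break down the ligands were marked in 7 of 20 cases, below the 60.8% background. Among them were the steroid reductase Srd5a1 with 25.1, the thyroid hormone transporter Slco1c1 with 12.02 and the cholesterol hydroxylase Cyp46a1 with 10.2. Of the retinoic acid synthesis genes, Aldh1a1 had a weak peak of signal 4.16. The synthesis genes Aldh1a2 and Aldh1a3 and the binding protein gene Crabp1 were among the 13 without a peak. Of 17 known target genes 15 were marked, led by Klf9, a glucocorticoid and thyroid hormone target, with 37.0, Sgk1 with 28.9, Fkbp5 with 23.4 and Abcg1, an LXR target, with 23.1. The 2 without a peak were Cyp3a11 and Cyp7a1, which are liver targets of the xenobiotic and bile acid receptors.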

How the data were processed

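H3K27ac ChIP-seq of 4 samples (2 pools with 2 technical replicates, fragments of 200 to 600 bp) was deposited by the authors as 4 narrowPeak lists on mm10, per the labels. Per peak they hold the authors' deposited signal, whose scaling is not stated, deposited −log10 q values, and a summit offset. No aligner or peak caller is named in the sources used here. None of the 350032 peaks ended beyond its chromosome.

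From these lists promoter peaks (within 1 kb of a coding TSS of GENCODE M21), covered length within 10 kb and pool support (50% of the replicated peak) were computed with Python 3.11.15, numpy 2.4.6, pandas 2.3.3, scipy 1.17.1, pysam 0.24.0 and matplotlib 3.10.9. The steps were tested on 2000 made-up genes, with 0 wrongly assigned. The main TSS came from the first coding transcript by basic tag, APPRIS level, support level and length. Promoter sequences came from RefSeq on GRCm38.p6. Differences of the CAST/EiJ alleles from the reference were not analysed here.

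Members and lists were chosen with earlier results of these data known. All members are accounted for. Full values were given for up to 3 members of a class with the highest signal, the member with most covered bp, and members whose pools differed. From the pathway lists up to 4 genes with the highest signal and up to 3, in alphabetical order, without a promoter peak were named. A few genes that this takes are left out. Any other gene was named after its values were seen. The 2 pools form 1 group, so no test was made, and the 95% Wilson intervals reflect only how many genes were counted. Alternatives were other peak lists, each pool left out, stricter peaks, other windows, other overlaps, peaks of the gene alone and other start sites.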

Additional observations from a re-analysis of the deposited data

How the results depend on the processing

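The count of marked receptors stayed between 23 and 28 of 41 under the 10 alternatives tried, and between 24 and 26 with either pool left out. Leaving out pool C lost Rxrg, Pparg and Esrrb, and leaving out pool D lost Esrrb. Peaks above the median signal of their list lost Rxrg and Esrrb, and peaks holding no other coding gene lost Rxrb and Nr2e1. With the main TSS alone Pgr, Thrb, Pparg and Nr6a1 were lost, so that 0 of the 3 sex steroid and 1 of the 2 thyroid receptors were marked. The liver count was 0 under each of the 10, though alternatives that only drop peaks or starts could not have raised it. The median covered length, 1460 bp, was 878 bp for 2 kb on each side, 1830 bp for 25 kb, 2220 bp around the start farthest upstream, and 2238 bp around the start with the strongest promoter peak, an alternative chosen after seeing the data, as was the addition of RefSeq starts. With either pool left out it was 1245 to 1654 bp. Support by both pools held for 19 members when 50% of both peaks had to overlap and for 24 at 1 bp. No paired analysis was possible because all samples formed 1 group. Depth is unknown, and the pool D list is the shorter, so a member missing there was not detected at its depth.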

Other observations

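Several nuclear receptor genes outside the 41 were also marked in the replicated list. The activity-induced receptor gene Nr4a3 had the highest signal of those described here in the replicated list, 37.1, and had 38.9 in pool C. In pool D its signal was 6.82, below the median of 10.2 over the marked genes of that list, while its covered length was 15632 bp in the replicated list and 11455 bp in pool D. The circadian repressors Nr1d2 and Nr1d1 had 33.8 and 26.8 in the replicated list, 44.2 and 29.0 in pool C, and 23.9 and 21.2 in pool D. Nr4a2 had 17.7, 20.7 and 10.5 in the same lists.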
